A study of Mus musculus with 15 samples.

Results

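The 9 genes described here encode cell adhesion molecules of the immunoglobulin superfamily: NRCAM, L1CAM, CHL1 and NFASC of the L1 family, the laminin receptors BCAM and MCAM, and ALCAM, ICAM1 and CADM1. They are 9 of the 25382 genes in the count table. NRCAM was picked on its measured counts, because it stood among the genes that differed most between tumours of weakly and of strongly adherent cells, and the other 8 were added as relatives by gene name. All 9 symbols were in the table, and 7 were counted highly enough to be tested. CHL1 and NFASC fell below the filter on low counts and are given as read numbers.

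The tumours grew from MDA-MB-231, a human triple-negative breast cancer line carrying GFP and luciferase, in mice whose strain is given as Nod/Skid. The tumours of 6 libraries came from weakly adherent cells, those of 4 from strongly adherent cells and those of 5 from unsorted cells. The sort was by fluid shear stress, at 10 dyn per square centimetre for weakly adherent and 50 dyn per square centimetre for strongly adherent cells, while unsorted cells saw none. All groups share the line and the mouse strain. Tumours were dissociated and bulk mRNA was sequenced, so each value averages over all cells left in the suspension, host cells included as far as their reads align to human genes. In such bulk values, fewer cells of a type and less RNA per cell cannot be told apart. Each library carries a number in its title (4, 5, 6, 7-8, 9 or 10), shared across the adhesion groups. What that number stands for, how many mice a library comes from and whether libraries come from separate animals is not stated, so the p-values cover the spread among these libraries and nothing wider.

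Members of the L1 family span the membrane, bind each other and other adhesion molecules outside the cell, and are tethered inside to the spectrin skeleton by ankyrins. They are best known from axon growth and from the nodes of myelinated nerve fibres, and L1CAM and NRCAM are also studied in carcinoma cells, where beta-catenin signalling can switch them on. BCAM and MCAM bind laminins of the basement membrane, and MCAM is strongly expressed in endothelial cells and pericytes. ALCAM binds itself and the lymphocyte receptor CD6. ICAM1 is the ligand of leukocyte integrins and is induced through NF-kB. CADM1 binds itself and other nectin-like proteins and is anchored inside by proteins of the band 4.1 and MAGUK families.

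Libraries held between 30372619 and 45434799 counts. The 3 libraries titled 6 stood apart from the other 12 by little E-cadherin (CDH1 at 0.267 to 5.56 CPM, against 53.1 to 549 CPM) and more vimentin (VIM at 6489 to 7399 CPM, against 1143 to 4478 CPM). CPM are counts scaled to library size and adjusted between libraries by the TMM method. Skeletal muscle actin (ACTA1) was at 864 CPM in strongly adherent library 5 and at 53.4 to 350 CPM in the libraries titled 6, against at most 3.24 CPM in the others. Gene lengths were not used here, so levels are compared between libraries and never between genes.

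NRCAM helps to cluster sodium channels at nodes and takes part in semaphorin signalling. It averaged 1.12 ± 0.283 CPM in the 6 weakly adherent libraries, 2.39 ± 0.870 CPM in the 4 strongly adherent ones and 1.29 ± 0.103 CPM in the 5 unsorted ones (mean ± SD). The weakly adherent libraries lay between 0.759 and 1.47 CPM with a median of 1.07 CPM. Strongly adherent libraries 4, 5, 6 and 9 had 1.496, 2.61, 3.50 and 1.96 CPM, and unsorted libraries 4, 5, 6, 7-8 and 9 had 1.13, 1.42, 1.30, 1.27 and 1.30 CPM. All 4 strongly adherent libraries thus lay above all 11 others, although strongly adherent library 4 exceeded the highest weakly adherent value only narrowly. NRCAM was selected on a difference between adhesion groups, so this separation is a description. The share of all genes separated in this way was not worked out. Behind these levels stood 26 to 61 reads per weakly adherent library, 63 to 131 per strongly adherent library and 34 to 60 per unsorted library.

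The log2 fold change of NRCAM was -1.10 ± 0.27 (SE, 95% interval -1.68 to -0.52) for weakly against strongly adherent tumours, which is 0.468 times the level. This is the difference that selected the gene, so it is a description and carries no test. Within the title numbers held by both groups, weakly minus strongly adherent, the log2 difference was -0.10 in number 4, -1.10 in number 5, -1.82 in number 6 and -0.40 in number 9. The sign was the same in all 4 pairs, while the size varied widely. For strongly adherent against unsorted tumours the log2 fold change was 0.80 with the title number as a block. Without that pairing it was 0.89 ± 0.29 (SE, 95% interval 0.29 to 1.502). It rests on the same strongly adherent libraries and is not independent of the selection, and here too the sign was positive in 4 of 4 pairs, at 0.38, 0.85, 1.40 and 0.58 for numbers 4, 5, 6 and 9. The unsorted levels of NRCAM lay within the weakly adherent range, with a weakly adherent against unsorted log2 fold change of -0.20 ± 0.26 (SE, 95% interval -0.76 to 0.35). The weakly adherent libraries were part of the selection too, so this value is a description and no independent test. Of the 5 pairs, weakly minus unsorted, the difference was positive in numbers 4 and 9 (0.29 and 0.18) and negative in numbers 5, 6 and 7-8 (-0.25, -0.43 and -0.71).

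**Figure D1:**
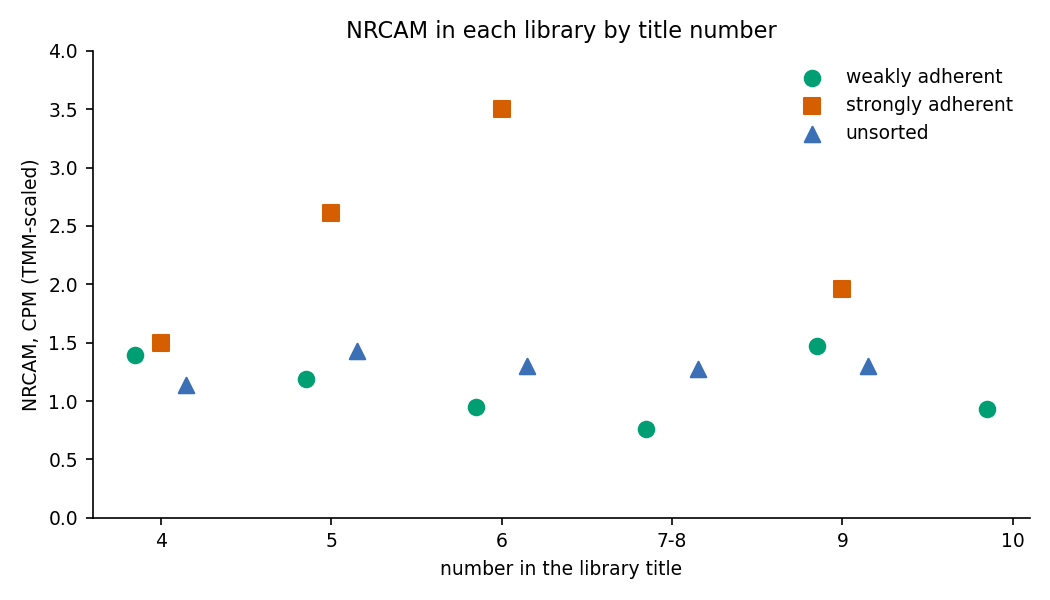
NRCAM level in CPM (vertical axis) in each of the 15 libraries, placed by the number in the library title (horizontal axis), with circles for weakly adherent, squares for strongly adherent and triangles for unsorted tumours. The 4 squares, at 1.496 to 3.50 CPM, lie above every circle and triangle, none of which exceeds 1.474 CPM. NRCAM was selected on the difference between weakly and strongly adherent tumours, so this order is a description.

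The 2 highest NRCAM levels belonged to strongly adherent libraries 6 and 5, which also carried muscle transcripts. The summed level of 17 skeletal muscle markers reached 454 CPM in the first and 2923 CPM in the second of these, against 7.00 to 16.5 CPM in the 11 libraries outside title number 6 other than strongly adherent library 5. In the other libraries titled 6 the sum was 180 CPM for weakly adherent and 1146 CPM for unsorted tumours, whose NRCAM stood at 0.952 and 1.30 CPM. Without title number 6 the log2 fold change was -0.80 for weakly against strongly adherent and 0.65 for strongly adherent against unsorted tumours. Without title number 6 and strongly adherent library 5 these values were -0.57 and 0.42, with 2 strongly adherent libraries left. Summed nerve and glial markers overlapped between the groups, at 199 to 463 CPM in weakly adherent, 187 to 484 CPM in strongly adherent and 229 to 464 CPM in unsorted libraries. These sums rest mostly on 1 gene, TUBB3, which averaged 293 CPM over the 15 libraries, so they say little about the other markers on the list. By title number NRCAM averaged 1.34 ± 0.187 CPM in number 4, 1.74 ± 0.761 CPM in number 5, 1.92 ± 1.38 CPM in number 6 and 1.58 ± 0.344 CPM in number 9 (SD, n = 3 each), and these ranges overlapped. The part of muscle in the NRCAM difference was not tested.

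L1CAM, the founding member of the family, varied with the title number more than with the adhesion group. It averaged 182 ± 42.9 CPM in weakly adherent, 172 ± 50.1 CPM in strongly adherent and 189 ± 67.1 CPM in unsorted tumours (SD, n = 6, 4 and 5). Weakly adherent libraries lay between 119 and 238 CPM with a median of 182 CPM. Strongly adherent libraries 4, 5, 6 and 9 had 209, 175, 101 and 206 CPM, and unsorted libraries 4, 5, 6, 7-8 and 9 had 275, 179, 92.1, 221 and 180 CPM. The lowest value of each group was the library titled 6, and the highest of each group the library titled 4. By title number the mean level ran 104 ± 13.8 CPM in number 6 (n = 3), 163 CPM in number 10 (n = 1), 171 ± 10.1 CPM in number 5 (n = 3), 200 ± 17.8 CPM in number 9 (n = 3), 210 ± 14.5 CPM in number 7-8 (n = 2) and 241 ± 33.4 CPM in number 4 (n = 3). Number 6 did not overlap with any other number, and numbers 5 and 9 were set apart by less than 1 CPM, while the other neighbours in this order overlapped. How many of all genes set number 6 apart in this way was not worked out.

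The L1 family members CHL1, known in mice from nerve growth and synapses, and NFASC, a component of the nodes and initial segment of axons, were near the detection limit. CHL1 had 46 reads in all 15 libraries, 0 to 8 per library. Its reads were spread over the groups, with 20 in the 6 weakly adherent, 15 in the 4 strongly adherent and 11 in the 5 unsorted libraries. NFASC had 68 reads, 0 to 11 per library. The libraries titled 6 held 1, 0 and 1 NFASC reads in weakly adherent, strongly adherent and unsorted tumours, and the other 12 held 1 to 11. Scaled to library size, the highest of the 3 stood at 0.0307 CPM and the lowest of the 12 at 0.0334 CPM, all below or at a few reads. At this depth a count of 0 allows up to 3 reads, or 0.0631 to 0.1001 CPM depending on the library, so the NFASC difference is given as read numbers with no fold change.

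BCAM, the Lutheran blood group glycoprotein that binds laminin alpha 5 chains, had the widest spread relative to its mean of the 7 tested genes within every adhesion group. It averaged 106 ± 46.7 CPM in weakly adherent, 114 ± 70.5 CPM in strongly adherent and 108 ± 67.7 CPM in unsorted tumours (SD, n = 6, 4 and 5). Weakly adherent libraries lay between 58.7 and 189 CPM with a median of 96.4 CPM. Strongly adherent libraries 4, 5, 6 and 9 had 195, 147, 34.5 and 82.2 CPM, and unsorted libraries 4, 5, 6, 7-8 and 9 had 85.6, 165, 25.04, 190 and 76.8 CPM. The libraries titled 6 were again the lowest of each group, and those titled 9 the second lowest in each group. MCAM, also called CD146, averaged 81.7 ± 16.8 CPM in weakly adherent, 89.3 ± 27.3 CPM in strongly adherent and 88.6 ± 18.2 CPM in unsorted tumours (SD, n = 6, 4 and 5). Weakly adherent libraries had 57.4 to 101 CPM with a median of 86.8 CPM, strongly adherent libraries 4, 5, 6 and 9 had 110, 109, 51.3 and 87.6 CPM, and unsorted libraries 4, 5, 6, 7-8 and 9 had 96.2, 98.6, 56.5, 99.3 and 92.6 CPM. The library titled 6 was the lowest of each group for MCAM as well. The share of all genes with this order was not worked out.

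These group levels rest in part on the libraries titled 6. Without them L1CAM averaged 195 ± 33.3 CPM in weakly adherent, 196 ± 18.9 CPM in strongly adherent and 214 ± 45.5 CPM in unsorted tumours (SD, n = 5, 3 and 4). BCAM then averaged 116 ± 45.2 CPM in weakly adherent, 141 ± 56.4 CPM in strongly adherent and 129 ± 56.6 CPM in unsorted tumours, and MCAM 86.5 ± 13.3 CPM in weakly adherent, 102 ± 12.4 CPM in strongly adherent and 96.7 ± 3.06 CPM in unsorted tumours. The ranges of the groups still overlapped for all 3 genes.

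ALCAM, ICAM1 and CADM1 overlapped between all groups and between title number 6 and the rest. ALCAM averaged 275 ± 28.1 CPM in weakly adherent, 337 ± 49.1 CPM in strongly adherent and 284 ± 76.1 CPM in unsorted tumours (SD, n = 6, 4 and 5). Weakly adherent libraries had 229 to 306 CPM with a median of 283 CPM, strongly adherent libraries 4, 5, 6 and 9 had 341, 390, 348 and 271 CPM, and unsorted libraries 4, 5, 6, 7-8 and 9 had 236, 234, 358, 375 and 216 CPM. Of the strongly adherent libraries 3 exceeded every weakly adherent one, and 2 unsorted libraries did so as well.

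ICAM1 averaged 134 ± 19.7 CPM in weakly adherent, 138 ± 46.9 CPM in strongly adherent and 144 ± 44.2 CPM in unsorted tumours (SD, n = 6, 4 and 5). Weakly adherent libraries had 106 to 160 CPM with a median of 132 CPM, strongly adherent libraries 4, 5, 6 and 9 had 208, 121, 105 and 119 CPM, and unsorted libraries 4, 5, 6, 7-8 and 9 had 110, 143, 146, 215 and 105 CPM. Strongly adherent library 4 and unsorted library 7-8 stood above the rest. CADM1 was low, at 5.98 ± 1.30 CPM in weakly adherent, 6.48 ± 1.35 CPM in strongly adherent and 5.85 ± 1.44 CPM in unsorted tumours (SD, n = 6, 4 and 5), from 124 to 335 reads per library. Weakly adherent libraries had 3.62 to 7.47 CPM with a median of 6.08 CPM, strongly adherent libraries 4, 5, 6 and 9 had 7.72, 7.04, 4.57 and 6.60 CPM, and unsorted libraries 4, 5, 6, 7-8 and 9 had 7.57, 4.53, 5.39, 4.58 and 7.17 CPM. The libraries titled 4 and 9 lay above those titled 7-8 in every group that held them.

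**Figure D2:**
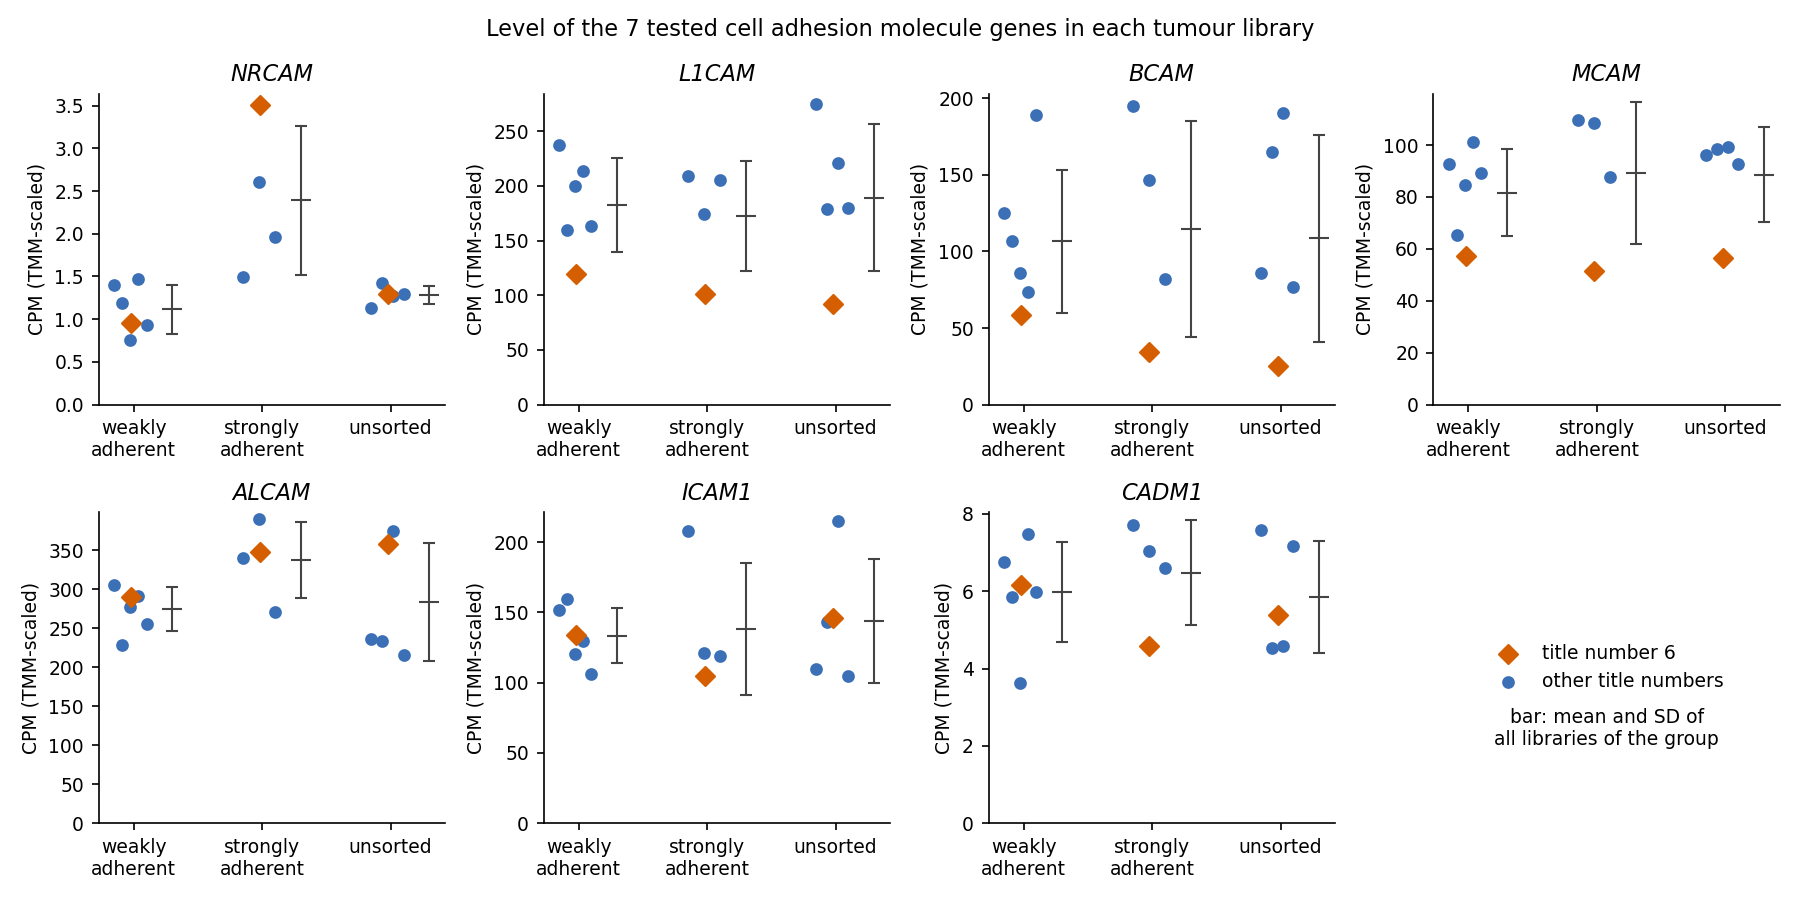
Level in CPM (vertical axis, starting at 0) of the 7 tested genes in each library by adhesion group (horizontal axis), with diamonds for the libraries titled 6, circles for the other title numbers, and the mean and SD of all libraries of a group beside them. For L1CAM, BCAM and MCAM the diamond is the lowest point of every group, and for NRCAM the strongly adherent points, at 1.496 to 3.50 CPM, lie above the others. NRCAM was selected on a difference between these groups, and the share of all genes with either pattern was not worked out.

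In the edgeR test of adhesion groups with Benjamini-Hochberg adjustment at 0.05, 0 of the 7 genes were called in any of the 3 contrasts, and the background was 0% of 15190 genes in each. At an unadjusted p under 0.05, 0 of the 7 passed for weakly adherent against unsorted tumours (0.533% of all genes) and 1, NRCAM, for strongly adherent against unsorted tumours (3.77% of all genes). That count of 1 rests on the same strongly adherent libraries as the selection of NRCAM, so it is no independent test. The weakly adherent libraries were part of that selection too, so for NRCAM none of the 3 contrasts is an independent test. For weakly against strongly adherent tumours, where NRCAM was selected, 1 of the 7, NRCAM, and 2.41% of all genes passed that unadjusted limit, and nothing is read from the count. DESeq2 also called 0 of the 9 genes in each contrast, with and without the title number as a block.

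The intervals of the other genes show what size of difference the fit with adhesion group alone leaves possible. That fit holds no title number, so the spread between title numbers counts toward these intervals. Intervals with the title number as a block are not given. Between weakly and strongly adherent tumours the log2 fold changes were 0.08 ± 0.27 for L1CAM, -0.10 ± 0.54 for BCAM, -0.13 ± 0.22 for MCAM, -0.30 ± 0.16 for ALCAM, -0.05 ± 0.21 for ICAM1 and -0.12 ± 0.22 for CADM1 (± SE). The interval of ALCAM reached -0.64 to 0.05 and that of BCAM -1.27 to 1.06, a range of more than a doubling either way. Between strongly adherent and unsorted tumours ALCAM had 0.25 ± 0.17 (95% interval -0.11 to 0.61), BCAM 0.08 ± 0.56, L1CAM -0.13 ± 0.28, CADM1 0.15 ± 0.23, ICAM1 -0.06 ± 0.22 and MCAM 0.01 ± 0.23. Between weakly adherent and unsorted tumours the same 6 genes had log2 fold changes between -0.12 (MCAM) and 0.03 (CADM1), with standard errors of 0.15 (ALCAM) to 0.51 (BCAM). The median log2 fold change of the 7 genes was -0.12 for weakly against strongly adherent, -0.05 for weakly adherent against unsorted and 0.08 for strongly adherent against unsorted tumours, beside -0.02, 0.00 and 0.02 over all genes. The contrasts share libraries, so they are not independent of each other.

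**Figure D3:**
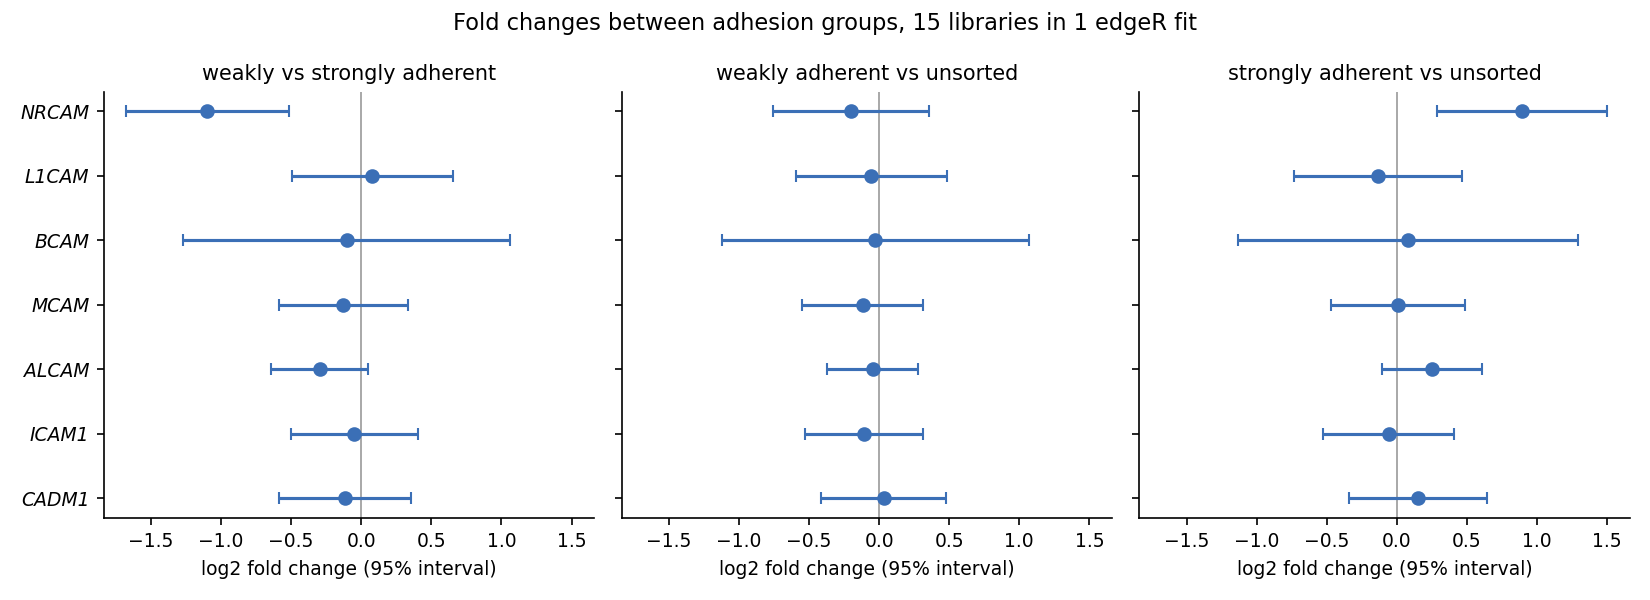
Log2 fold changes with 95% intervals (horizontal axis) of the 7 tested genes (vertical axis) in the 3 contrasts between adhesion groups. All are from 1 fit of the 15 libraries that leaves out the title number. The interval of NRCAM lies below 0 for weakly against strongly adherent and above 0 for strongly adherent against unsorted tumours, and the intervals of the other 6 genes include 0 in all 3 contrasts. NRCAM was selected on the difference between weakly and strongly adherent tumours, and both other contrasts share libraries with that selection. All of its intervals are therefore a description and no test.

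The part of the spread that lies between title numbers sets NRCAM beside its relatives. Of the sum of squares of log2 CPM over the 15 libraries, each factor taken alone, 64.3% lay between adhesion groups and 27.96% between title numbers for NRCAM, beside medians of 7.36% and 50.5% over all tested genes. The share between title numbers was 92.5% for L1CAM, 78.4% for BCAM, 78.1% for MCAM and 74.5% for CADM1, with 0.773% to 3.88% between adhesion groups. It was 32.0% for ICAM1 and 27.2% for ALCAM, of which ALCAM had 22.4% and ICAM1 1.01% between adhesion groups. Over the 12 libraries outside number 6 the share between title numbers was 45.7% for NRCAM, 76.3% for L1CAM, 52.9% for BCAM, 10.4% for MCAM and 78.0% for CADM1. It was 33.6% for ICAM1 and 17.5% for ALCAM, beside a median of 41.3% over all tested genes. In these 12 libraries the share between adhesion groups was 56.1% for NRCAM, 30.2% for MCAM, 27.0% for ALCAM and 14.7% for CADM1. It was 2.19% to 6.44% for ICAM1, BCAM and L1CAM, beside a median of 16.1%. For NRCAM these shares include the difference it was chosen for, and they are given as a description.

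A joint edgeR test for any difference among the 6 title numbers, adjusted for adhesion group, called 2 of the 7 genes, against a background of 7.9% of all genes. They were L1CAM (adjusted p = 0.00570) and MCAM (adjusted p = 0.0424). BCAM passed an unadjusted p under 0.05, as did 26.2% of all genes, and missed the adjusted threshold at 0.0707. L1CAM was called with each library left out (adjusted p 0.00375 to 0.0342), whereas the MCAM call was lost in 11 of the 15 such fits (adjusted p 0.0508 to 0.207) and kept without weakly adherent libraries 5, 9 or 10 or strongly adherent library 5. BCAM was called by DESeq2 (adjusted p = 4.63e-06), without the adhesion term (0.0395) and when weakly adherent library 6 (0.00898) or 7-8 (0.0262) or unsorted library 7-8 (0.0372) was left out. Among the other 5 title numbers, with the libraries titled 6 left out, edgeR called 0 of the 7 genes and 3 of all genes, at adjusted p = 0.304 for L1CAM, 0.319 for BCAM and 0.960 for MCAM. At an unadjusted p under 0.05, 3 of the 7 (BCAM, CADM1 and L1CAM) and 14.1% of all genes passed in that fit, which was added after seeing the data.

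Each title number was then set against the mean of the other 5 in the same fit. Number 6 gave the calls: L1CAM, BCAM and MCAM were lower there, so 3 of the 7 genes were lower and 0 higher. The background in this contrast was high, at 27.9% of all genes, 16.4% lower and 11.6% higher, and 3 of 7 is to be read against it. These were 4242 genes, and 1981 without strongly adherent library 6. That the libraries titled 6 differ in many genes was already known when the 9 genes were chosen.

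L1CAM fell to 104 ± 13.8 CPM in the libraries titled 6, against 201 ± 33.4 CPM in the others (mean ± SD over 3 and 12 libraries). The log2 fold change was -0.90 ± 0.12 (SE, edgeR adjusted p = 0.000493). The 3 libraries had 92.1 to 119 CPM and the other 12 had 160 to 275 CPM, without overlap. Its level in number 6 was 0.612, 0.514 and 0.431 times the mean of the other libraries of the group in weakly adherent, strongly adherent and unsorted tumours. BCAM fell furthest, to 39.4 ± 17.4 CPM in number 6, against 127 ± 48.0 CPM in the others, a log2 fold change of -1.74 ± 0.36 (SE, n = 3 and 12, edgeR adjusted p = 0.00721). Its 3 libraries had 25.04 to 58.7 CPM and the other 12 had 73.5 to 195 CPM, and within the groups the level was 0.506, 0.244 and 0.194 times that of the others in weakly adherent, strongly adherent and unsorted tumours. MCAM fell to 55.1 ± 3.29 CPM in number 6, against 93.8 ± 11.8 CPM in the others, a log2 fold change of -0.77 ± 0.14 (SE, n = 3 and 12, edgeR adjusted p = 0.00200). Its 3 libraries had 51.3 to 57.4 CPM and the other 12 had 65.3 to 110 CPM, at 0.663, 0.503 and 0.584 times the others in weakly adherent, strongly adherent and unsorted tumours. All 3 genes were lower in 3 of 3 adhesion groups and were called in all 20 alternative fits, including each library left out. How many of all genes separate number 6 from the other 12 libraries, as these 3 and NFASC do, was not worked out. Nothing is read from that separation.

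The remaining genes did not pass in number 6. NRCAM had a log2 fold change of 0.29 ± 0.31 and was -0.08 without strongly adherent library 6, ALCAM had 0.20 ± 0.15, ICAM1 -0.08 ± 0.21 and CADM1 -0.14 ± 0.18 (± SE). ICAM1 was 0.07 without strongly adherent library 6. The median of the 7 genes was -0.14, beside 0.01 over all genes.

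Epithelial markers moved in the same libraries: their summed level over 16 genes was 1833 to 2395 CPM in the libraries titled 6, against 3349 to 8356 CPM in the others, and 15 of 16 tested were called lower. Endothelial and pericyte markers, the cell types in which MCAM is best known, summed to 384 to 407 CPM over 16 genes in number 6, against 90.9 to 322 CPM in the others. Averaged over the 15 libraries, most of this sum came from ESAM and ROBO4 (means of 112 and 81.9 CPM). The call for ROBO4 in number 6 held in 10 of 20 alternative fits. Of the 14 list genes tested 6 were called higher and 2 lower, and 1 higher and 1 lower without strongly adherent library 6. The list did not move one way. NOTCH3, a receptor of pericytes and other mural cells, had the largest change, at 0.187 to 0.522 CPM in number 6, against 4.33 to 33.7 CPM in the others (log2 fold change -5.82 ± 0.51, SE, edgeR adjusted p = 7.95e-05). The pericyte gene RGS5 was also called lower (-0.87 ± 0.26), and KCNJ8 and ABCC9 had -0.76 ± 0.39 and -0.59 ± 0.43 without a call. Other pericyte genes on the list went the other way, with CSPG4 called higher (1.07 ± 0.26) and PDGFRB at 0.32 ± 0.25 without a call. All of these but NOTCH3 were named after their values were seen. CDH5, the cadherin of endothelial junctions, stood at 6.31 to 10.6 CPM in number 6, against 0.191 to 5.23 CPM in the others. ESAM, KDR, PECAM1 and ROBO4 were also called higher, and TIE1 had 0.88 ± 0.36 without a call. In the other direction CLDN5 and TEK had -1.31 ± 0.80 and -0.42 ± 0.26 without a call. Of these, all but CDH5 and ROBO4 were named after their values were seen. Nerve and glial markers, 14 genes, summed to 187 to 229 CPM in number 6, against 299 to 484 CPM in the others, with 0 higher and 2 lower of 9 tested, and 0 and 1 without strongly adherent library 6. TUBB3, a neuronal tubulin with near-identical relatives, had a log2 fold change of -1.26 ± 0.13 (SE, edgeR adjusted p = 0.000118). At 126 to 158 CPM in number 6 it gave most of the nerve and glial sum there, so that sum mainly follows TUBB3. The part of these cell types in the L1CAM, BCAM and MCAM differences was not tested.

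Outside number 6 none of the 7 genes was called by edgeR, at backgrounds of 0% of genes for numbers 4, 5 and 10, 0.0658% for number 7-8 and 0.0197% for number 9. At an unadjusted p under 0.05, 2 of 7 passed in number 4 (5.5% of all genes), 2 of 7 in number 7-8 (5.36%), and 0 of 7 in numbers 5 (9.06%), 9 (10%) and 10 (14.3%). In number 4 these were L1CAM, with a log2 fold change of 0.55 ± 0.11 (SE, edgeR adjusted p = 0.400, and DESeq2 adjusted p = 0.0228, a call), and CADM1 with 0.40 ± 0.18 (SE, edgeR adjusted p = 0.905). In number 7-8 they were L1CAM with 0.30 ± 0.14 and CADM1 with -0.60 ± 0.23 (SE, edgeR adjusted p = 0.910 and 0.697). DESeq2 called 0 of the genes in numbers 5, 7-8, 9 and 10.

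**Figure D4:**
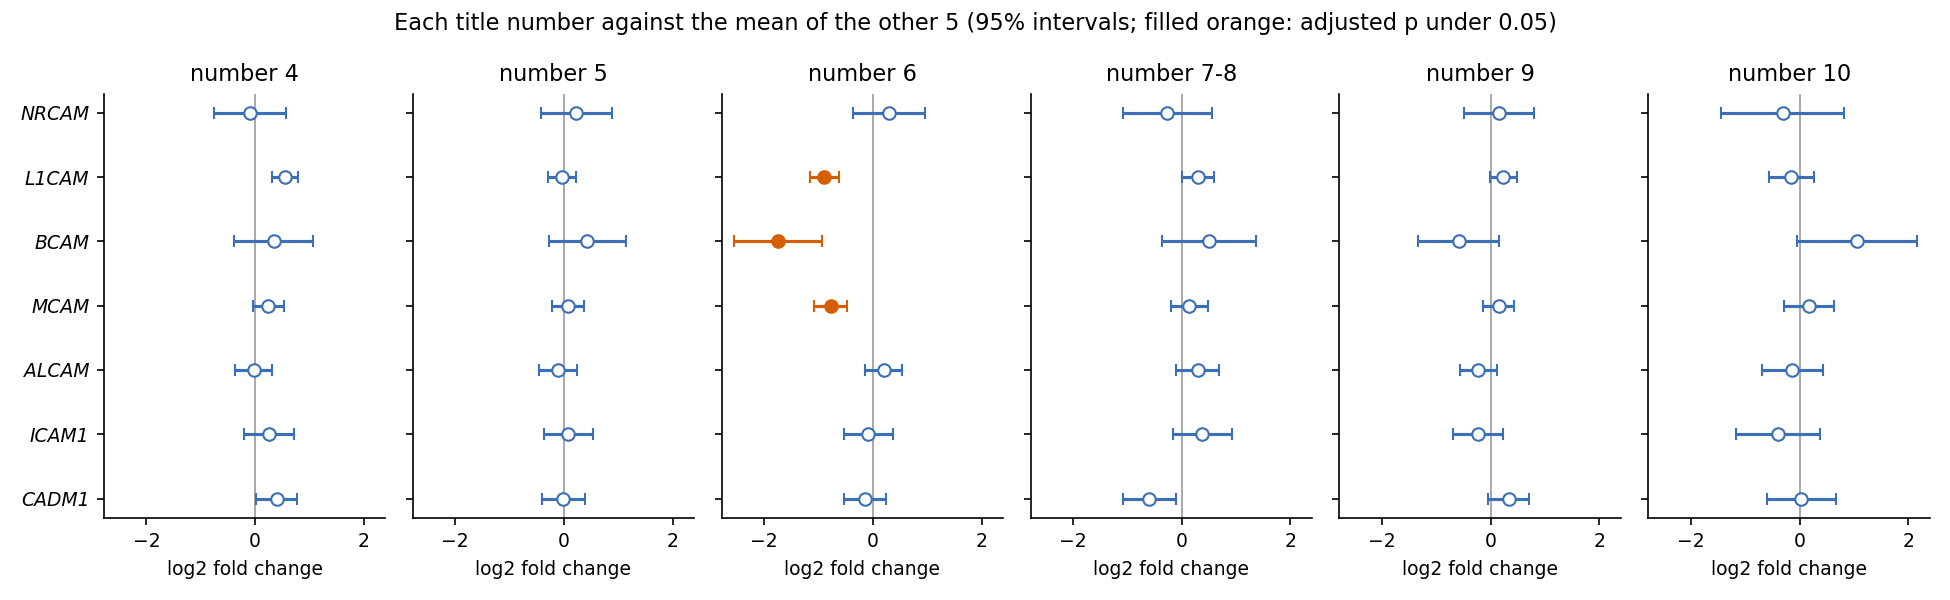
Log2 fold changes with 95% intervals (horizontal axis) of the 7 tested genes (vertical axis) for each title number against the mean of the other 5, adjusted for adhesion group, with filled orange points for adjusted p under 0.05. The 3 filled points are L1CAM (-0.90), BCAM (-1.74) and MCAM (-0.77) in number 6.

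Rank correlations among the 7 genes over the 15 libraries were highest for MCAM with L1CAM and with BCAM, at a Spearman rho of 0.67 for both pairs, and both were 0.36 over the 12 libraries outside number 6. The libraries share title numbers and a range of depths, so these are descriptions. NRCAM correlated with none of the other tested genes above 0.39 (ALCAM) over the 15 libraries, and over the 12 libraries its highest was 0.59 (MCAM). Of 13138 other genes at a mean of at least 1 CPM, those whose levels ranked most like NRCAM were ITPRIPL2 (rho 0.81), the amino acid transporter gene SLC38A1 (0.80), PRKAB2, which encodes a subunit of the energy sensor AMPK (0.80), KIAA1467 (0.79) and the sialidase gene NEU3 (0.79). Over the 12 libraries outside number 6 they had 0.76, 0.83, 0.76, 0.86 and 0.73. Those ranked most opposite were HAUS1 of the mitotic spindle (-0.85), ATP5L of the mitochondrial ATP synthase (-0.85) and the cell cycle inhibitor gene CDKN2C (-0.85), with -0.85, -0.83 and -0.78 over the 12 libraries. They were taken as extremes of many genes over few libraries.

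Partners and relatives, with marker lists of cell types, were described as 16 lists with 255 genes, 210 of them tested. In the 3 contrasts between adhesion groups edgeR called 0 of the 210, and at an unadjusted p under 0.05 there were 15 for weakly against strongly adherent (7.14%, beside 2.41% of all genes), 2 for weakly adherent against unsorted (0.952%, beside 0.533%) and 6 for strongly adherent against unsorted tumours (2.86%, beside 3.77%). With the title number as a block these were 26 (12.4%, beside 6.78% of all genes), 4 (1.9%, beside 1.13%) and 22 (10.5%, beside 8.26%), again with 0 called. DESeq2 called 0 of them as well, with and without the title number as a block, where with the block it called 36, 7 and 23 of all genes. edgeR called 0% of the 15190 genes in each contrast, so the absence of a call is nothing particular to these lists. They hold the ankyrins, spectrins and ezrin-type linkers of L1 family proteins, the neuropilins, plexins and semaphorins they signal with, and the proteases that cut them. They also hold marker lists of cell types such as muscle and epithelium, and the counts above cover all lists together. For weakly against strongly adherent tumours the median log2 fold change was -4.43 for muscle, -0.69 for epithelial and 0.26 for endothelial and pericyte markers. It was -0.03 for the ankyrin and skeleton list, 0.00 for co-receptors and 0.02 for sheddases, beside -0.02 over all genes. How the counts divide among the lists was not worked out.

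Counts of list genes called in title number 6 are to be read against the 27.9% of all genes called there. The share was 33.3% for the ankyrin and skeleton list, 7.69% for co-receptors, 23.5% for the beta-catenin list, 39.1% for the NF-kB and cytokine list, 50.0% for CADM1 partners, 54.5% for other immunoglobulin-type adhesion molecules and 60.0% for the 5 laminin chains. In title number 6 the ankyrin and skeleton list had 3 higher and 1 lower of 12 tested genes, and the call for MSN, the membrane-actin linker moesin, held in all alternative fits. MSN had 1904 to 2444 CPM in number 6, against 835 to 1872 CPM in the others, a log2 fold change of 0.80 ± 0.16 (SE, edgeR adjusted p = 0.00403). NUMB, an endocytic adaptor, had a log2 fold change of 0.52 ± 0.13 (SE), and its call ended without strongly adherent library 6 (edgeR adjusted p = 0.0908). Without that library the list had 2 higher and 0 lower. Of 13 co-receptors and semaphorin signalling genes 1 was higher and 0 lower, and that one, PLXNA2, kept its call in 6 of 20 alternative fits. Of 14 sheddases and secretases, which release the outer part of L1CAM, NRCAM, ALCAM and CADM1, edgeR called 0, with 3 at an unadjusted p under 0.05 (ADAM10, APH1A and NCSTN, named after their values were seen). DESeq2 called 1 of this list lower and edgeR without the adhesion term 2, and edgeR called 4 lower when weakly adherent library 6 was left out, 2 when weakly adherent library 5 was, and 1 when weakly adherent library 7-8 or 10 or strongly adherent library 9 was.

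Of 5 laminin chains bound by BCAM and MCAM, 2 were called higher (LAMA4 and LAMB2) and 1 lower (LAMB1) in number 6, and 0 without strongly adherent library 6. LAMA4, the chain that MCAM binds, stood at 19.8 to 36.3 CPM in number 6, against 9.97 to 21.5 CPM in the others, with overlap (log2 fold change 1.01 ± 0.25, SE, edgeR adjusted p = 0.0125, and 0.0966 without that library). Of 17 beta-catenin pathway genes 1 was higher and 3 lower, and 1 higher and 1 lower without strongly adherent library 6. MYC had a log2 fold change of 0.95 ± 0.20 and RNF43, a ligase that removes Wnt receptors, had -2.54 ± 0.47 (SE, edgeR adjusted p = 0.00543 and 0.00390).

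Among CADM1 partners, 1 was higher and 4 lower of 10 in number 6. The band 4.1 gene EPB41L1 had 23.9 to 29.1 CPM in number 6, against 36.7 to 90.1 CPM in the others, and the MAGUK gene CASK had 40.0 to 50.8 CPM in number 6, against 60.2 to 136 CPM in the others. Their log2 fold changes were -0.82 ± 0.17 and -0.92 ± 0.18 (SE, edgeR adjusted p = 0.00472 and 0.00394), beside -0.14 ± 0.18 for CADM1 itself. Of 23 NF-kB, interferon and cytokine genes on the list for ICAM1, 6 were higher and 3 lower. CXCL2, a neutrophil chemokine, was higher by 1.84 ± 0.24 and IL6 by 1.78 ± 0.27, while IL1A was lower at -1.93 ± 0.35 (log2 fold change ± SE, edgeR adjusted p = 0.000408, 0.000864 and 0.00236), beside -0.08 ± 0.21 for ICAM1. Of the leukocyte ligands of ICAM1 and ALCAM 1 of 6 was counted highly enough to be tested (ITGB2, the shared beta chain of leukocyte integrins, at -0.25, edgeR adjusted p = 0.527) and was not called.

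Among 48 other adhesion molecules of the immunoglobulin superfamily, 33 were tested, of which 5 were higher and 13 lower in number 6, and 0 higher and 7 lower without strongly adherent library 6. The median log2 fold change of the 33 was -0.35, beside 0.01 over all genes. MPZL2, an epithelial adhesion molecule, stood at 0.382 to 5.19 CPM in number 6, against 23.3 to 147 CPM in the others (log2 fold change -4.62 ± 0.81, SE, edgeR adjusted p = 0.00499). PVRL4, also called nectin-4, stood at 0.160 to 0.553 CPM in number 6, against 2.32 to 12.3 CPM in the others (-4.21 ± 0.56, edgeR adjusted p = 0.000540). VCAM1, the integrin ligand induced beside ICAM1 in endothelium, was at 0.0254 to 0.0802 CPM in number 6, against 0.0950 to 5.00 CPM in the others (-4.54 ± 0.72, edgeR adjusted p = 0.00108). These levels of VCAM1 in number 6 rest on a few reads per library. The calls of all 3 held in the 20 alternative fits.

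**Figure D5:**
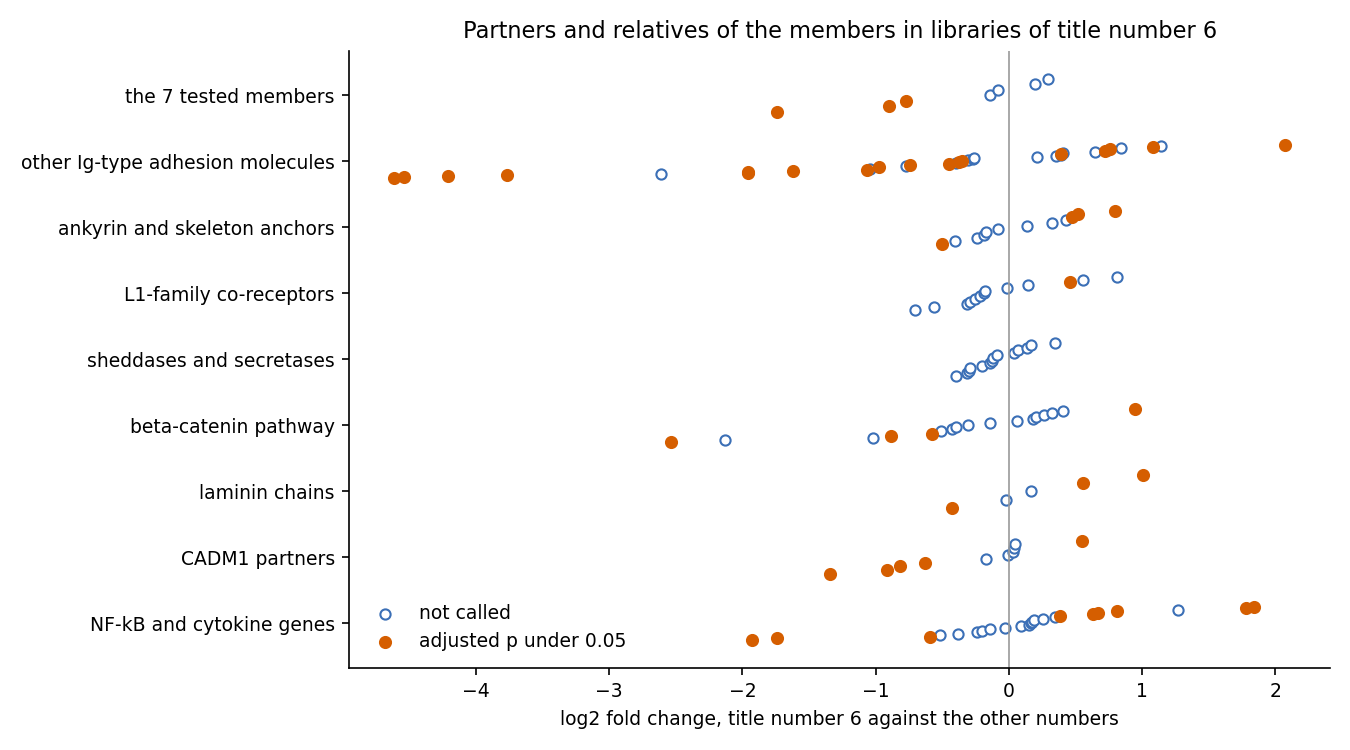
Log2 fold changes (horizontal axis) of the tested genes in title number 6 against the other numbers, for the 7 tested genes and 8 lists of partners and relatives (vertical axis), with filled points for adjusted p under 0.05. The lowest points among the other immunoglobulin-type adhesion molecules are MPZL2 (-4.62), VCAM1 (-4.54) and PVRL4 (-4.21), beyond BCAM at -1.74, and the sheddases and secretases hold no filled point.

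Further marker lists gave the same contrast a wider setting. Of 16 skeletal muscle markers tested 7 were higher and 1 lower in number 6, and the sums are given above beside NRCAM. Macrophage and leukocyte markers, 15 genes, summed to 123 to 206 CPM in number 6, against 74.7 to 130 CPM in the others, with 1 higher and 3 lower of 7 tested, and 5 or 6 of the 15 at 0 reads in the libraries titled 6. CD68, a lysosomal protein, was the higher one (0.97 ± 0.19) and gave most of the sum, with 111 to 193 CPM in number 6. The lower ones were AIF1 (-1.74 ± 0.46), CSF1R (-0.77 ± 0.22) and PTPRC (-2.17 ± 0.42, named after its values were seen), so the sum and most of the called genes differ in direction. Fibroblast markers, 12 genes, summed to 517 to 799 CPM in number 6, against 703 to 1418 CPM in the others, with 1 higher and 5 lower of 9 tested, among them COL3A1 at -1.96 ± 0.26 and COL1A1 at -1.66 ± 0.31 (log2 fold change ± SE). Of 14 mesenchymal genes 2 were higher and 4 lower, and of these SPARC had -1.85 ± 0.16 and TWIST1 -1.79 ± 0.30. The epithelial regulators GRHL2 and ESRP1 had -6.75 ± 0.72 and -6.47 ± 0.92. Without strongly adherent library 6 the macrophage list had 1 higher and 1 lower, the fibroblast list 0 higher and 4 lower and the mesenchymal list 0 higher and 3 lower. The muscle count moved most: 0 genes were called higher without weakly adherent library 6, unsorted library 6 or unsorted library 7-8, and 15 without strongly adherent library 5.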

How the data were processed

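Raw counts, deposited by the authors as whole numbers for 25382 human gene symbols, were used for all 15 libraries, while their table of normalized values was not used here. Libraries were stranded TruSeq, read as 50 bp single ends, per the labels' protocols. The tools named are STAR, HTSeq, DESeq2, FastQC and cutadapt, and the build hg19, per the submitters' processing notes, which give no versions. Strand use in counting is not given. The labels name the mouse as organism while the symbols are human, so host reads that align to human genes may be among the counts.

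The tests ran in edgeR 4.0.16 under R 4.3.3 (TMM scaling, low counts removed with filterByExpr on the adhesion groups, a robust quasi-likelihood fit to all 15 libraries, two-sided, Benjamini-Hochberg over the 15190 genes tested, threshold 0.05). The first fit held the adhesion group, with a biological coefficient of variation of 33.6%. The second held title number and adhesion group, at 22.4%. Standard errors were derived from each log2 fold change and its F statistic, and intervals of 95% use the t distribution, so both are approximate. Log2 CPM used a prior count of 2. Alternatives were DESeq2 1.42.0, its size factors in edgeR, no filter, at least 1 CPM in 4 libraries, the title number as a replicate block, no adhesion term, and libraries left out, of which the joint test without title number 6 was chosen after seeing the data. The fits were tested on simulated data. For the adhesion contrasts these data held no title number differences, so the test does not cover the spread that such differences add.

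Same-numbered libraries deviated together, with r over 0.1, in 3 of 4 weakly and strongly adherent pairs, 4 of 5 weakly adherent and unsorted pairs and 4 of 4 strongly adherent and unsorted pairs (r 0.280 to 0.750). Over all 13 such pairs the median r was 0.258, beside -0.026 for pairs of different numbers. With r over 0.1 required in every pair, the numbers were taken to pair the samples only in the last contrast. That limit does not show that the numbers fail to pair the samples in the other contrasts. The main values of that contrast come from the fit with adhesion group alone, which leaves the pairing out, and the title number as a block was run as an alternative. No libraries were duplicates, the lowest chi-square per degree of freedom between any 2 being 18.1. The 9 genes, the lists and the tests were chosen with earlier results of these data known. Named genes are the 9, up to 3 per list past the threshold with the largest change in title number 6 at a mean of at least 1 CPM, the 5 most and 3 least like NRCAM by rank correlation, and CDH1, VIM and ACTA1, and not every gene this picks is given, 1 of them being not reported here. Limits from a count of 0 were set at 3 counts and cover counting error only.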

Additional observations from a re-analysis of the deposited data

Results flagged for a closer look

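In 2 of the 21 combinations of a tested gene and an adhesion group, 1 library lay far from the others of its group by Dixon's test at 95%, which flags about 1 in 20 groups by chance. MCAM stood at 56.5 CPM in unsorted library 6, against 92.6 to 99.3 CPM in the other 4 unsorted libraries. CADM1 stood at 3.62 CPM in weakly adherent library 7-8, against 5.84 to 7.47 CPM in the other 5 weakly adherent libraries, and the unsorted library of the same title number, at 4.58 CPM, was not set apart in its group.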

How the results depend on the processing

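The counts of genes called among the 9 were 0 in the 3 adhesion contrasts and 3 in title number 6 under every alternative run. The joint test of title numbers called 1 with DESeq2 size factors (MCAM at 0.0505), 3 under DESeq2 and without the adhesion term, 1 to 2 with a library left out, and 0 without title number 6, an alternative chosen after seeing the data, and title number 4 called 1 under DESeq2. With the title number as a replicate block, NRCAM had -0.95 for weakly against strongly adherent and 0.80 for strongly adherent against unsorted tumours, and no call among the 9 changed. For strongly adherent against unsorted tumours, where the numbers were taken to pair the samples, edgeR with the block called 0 of all genes as well. Of 14 libraries with a partner, 9 correlated best with their own number. Signs turned in values that passed no threshold in any fit: for weakly adherent against unsorted tumours ALCAM was 0.0089 and L1CAM 0.0176 with the block, 0.0045 and 0.0137 with DESeq2 and the block, and ALCAM was 0.0425 without title number 6, also with strongly adherent library 5 left out. ICAM1 for strongly adherent against unsorted tumours was 0.0552 and 0.183 in those fits. With 1 library left out, the ranges of results that turned sign were -0.13 to 0.0745 (ALCAM), -0.28 to 0.27 (BCAM), -0.0473 to 0.14 (CADM1), -0.20 to 0.0844 (ICAM1) and -0.23 to 0.12 (L1CAM) for weakly adherent against unsorted, -0.31 to 0.38 (BCAM), -0.32 to 0.13 (ICAM1), -0.32 to 0.0512 (L1CAM) and -0.12 to 0.20 (MCAM) for strongly adherent against unsorted tumours, and -0.18 to 0.0737 (ICAM1) and -0.0794 to 0.56 (NRCAM) in title number 6. For weakly against strongly adherent tumours, where no test is given, BCAM ran -0.41 to 0.28, ICAM1 -0.16 to 0.22 and L1CAM -0.11 to 0.19 with 1 library left out. The cause was not tested. Over all genes, DESeq2 with the replicate block called 36, 7 and 23 for weakly against strongly adherent, weakly adherent against unsorted and strongly adherent against unsorted tumours, where edgeR called 0. DESeq2 called 28, 93, 90, 96 and 326 in title numbers 4, 5, 7-8, 9 and 10, where edgeR called 0, 0, 10, 3 and 0, and 3347 in the joint test, where edgeR called 1200, and 3 without title number 6. Without the filter edgeR called 18 in number 7-8 and 9 in number 10, with at least 1 CPM in 4 libraries 4 in number 7-8, and without the adhesion term 4, 1 and 0 in numbers 4, 5 and 7-8. With a library left out the counts ran 0 to 10, 0 to 41, 1981 to 4231, 0 to 90, 0 to 15 and 0 to 228 for numbers 4, 5, 6, 7-8, 9 and 10, and 386 to 1621 in the joint test. NRCAM moved to -0.57 for weakly against strongly adherent tumours without title number 6 and strongly adherent library 5.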
